A study of Mus musculus with 8 samples.

Results

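Flavopiridol was compared with its vehicle in polycystic mouse kidney. The comparison used the 2 libraries labelled PKD_FP and the 2 labelled PKD_DMSO, 4 of the 8 libraries of the series, taken by their labels. All animals were C57BL/6 mice, and the RNA came from whole kidney. The PKD_DMSO kidneys had autosomal dominant polycystic kidney disease (ADPKD) and received DMSO, and the PKD_FP kidneys had the same disease and received FP, which the design of the series gives as flavopiridol. The other 4 libraries, 2 of wild-type (WT) kidney with DMSO and 2 with FP, served to estimate the spread between replicates and to set the PKD response beside the WT response. RNA was extracted with TRIzol and selected with oligo dT, so the libraries hold mainly polyadenylated RNA. The sources used here do not give the mutated gene, the promoter or allele that drives the disease, the age of the mice, or the dose and length of treatment. Nothing in the labels says that the 2 libraries of a group came from different mice, and p-values therefore measure the spread between libraries, which may be technical.

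Flavopiridol is a small molecule that inhibits cyclin-dependent kinases, CDK9 among them. CDK9 pairs with cyclin T1 or T2 to form P-TEFb, the kinase that phosphorylates paused RNA polymerase II and its pausing factors and lets transcription proceed into the gene body. A large share of P-TEFb is held inactive by HEXIM1 on the 7SK RNA, which LARP7 binds and stabilizes. In ADPKD, tubule cells proliferate and secrete fluid into cysts, cAMP and protein kinase A drive both processes, and the tissue between the cysts becomes inflamed and fibrotic. The study concerns the activation of P-TEFb by cAMP in this disease, and the comparison asks which transcripts of the cystic kidney differed when the inhibitor was given.

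The labelled tissue matched its markers. Umod, the thick ascending limb transcript that encodes uromodulin, stood at 748 and 717 FPKM (fragment counts scaled for transcript length and library depth) in PKD_DMSO and 980 and 909 in PKD_FP. The phosphate transporter transcript Slc34a1 of the proximal tubule stood at 397 and 214 and at 267 and 191. The sum of FPKM per library ran from 486060 to 568822 over the 4 PKD libraries, and the number of reads behind it is unknown. Across genes, the correlation of log2(FPKM + 1) was 0.973 between the PKD_DMSO libraries, 0.969 between the PKD_FP libraries and 0.937 to 0.962 between the groups.

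The 2 PKD_DMSO libraries differed from all the others in how their values depended on transcript length. In each library genes were put in 10 equal bins by transcript length, and the median log2(FPKM + 1) of the longest bin was set against that of the shortest bin. The difference was −0.90 and −0.65 in PKD_DMSO, −1.34 and −1.31 in PKD_FP, −1.31 and −1.23 in WT_DMSO and −1.17 and −1.11 in WT_FP. The 2 PKD_DMSO libraries thus lay above the other 6 without overlap, and the PKD_FP minus PKD_DMSO difference was −0.55 with a pooled SD of 0.13 between replicates. An exact permutation test of 2 libraries against 2 cannot give a two-sided p below 0.33, so no test was made.

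The same trend ran through the fold changes. The median log2 fold change of PKD_FP against PKD_DMSO was 0.38 in the shortest bin of transcripts (up to 1249 bases), was smaller with each further step in length, and reached −0.19 in the longest (from 6565 bases). In the shortest bin 54.8% of genes were higher in both PKD_FP libraries than in both PKD_DMSO libraries and 7.96% were lower. In the longest bin the shares were 12.5% and 46.4%. The rank correlation of fold change with transcript length was −0.32 across 13695 genes, and with the genomic span of the gene it was also −0.32, while with GC content it was 0.07. Length and span themselves correlated at 0.62, and genes share libraries, so these are descriptions. In WT kidney the correlation with length had the opposite sign, 0.21. Most lists and some genes below are therefore also given after the log2 values of every library were corrected by a smooth curve on transcript length and GC content, here called the corrected value. That curve did not take in genomic span. In the shortest of 10 equal bins of span the median log2 fold change was 0.32, and 0.11 corrected. In the longest it was −0.15, and −0.03 corrected, so part of the trend with span remained. The part that transcript length or span played in any single result was not tested.

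**Figure D1:**
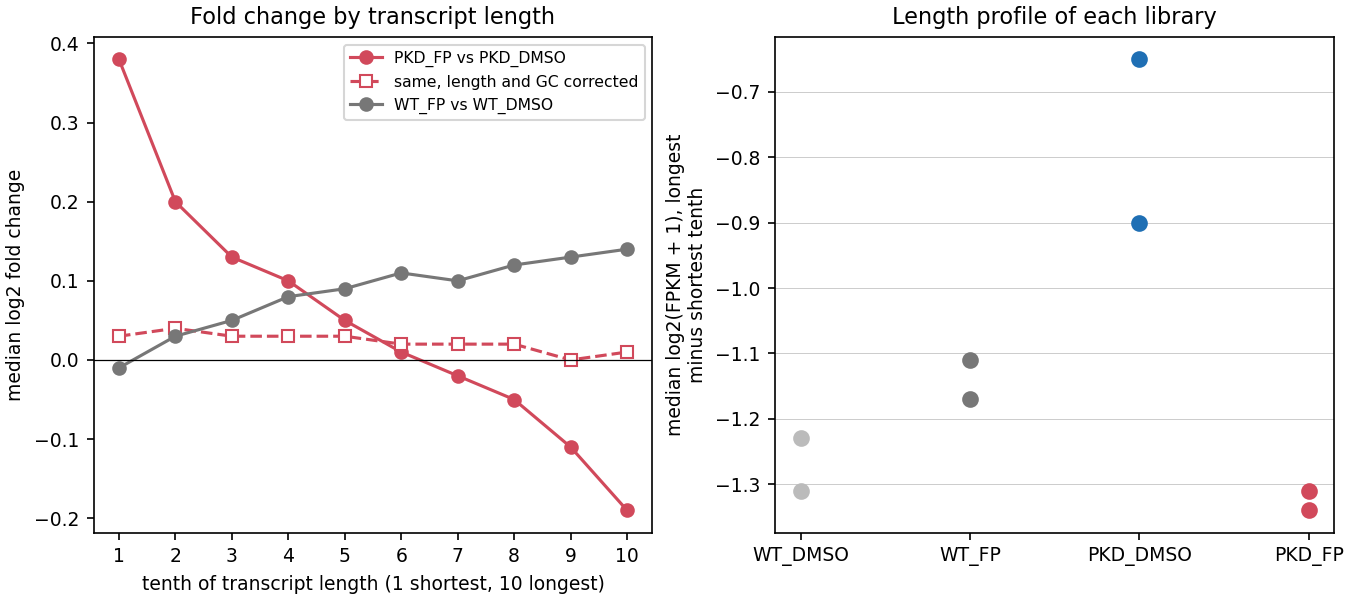
Left: median log2 fold change (y axis) in 10 equal bins of transcript length (x axis, 1 the shortest) for PKD_FP against PKD_DMSO as deposited (filled red), the same after correction for length and GC content (open red), and WT_FP against WT_DMSO (grey). Right: for each library, the median log2(FPKM + 1) of the longest bin minus that of the shortest, by group; the PKD_DMSO libraries sit at −0.90 and −0.65 and the other 6 between −1.34 and −1.11.

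Named genes of very long transcripts followed that trend. Of 32 listed, 28 were tested, 0 were higher and 14 lower at an unadjusted p under 0.05, and the median log2 fold change was −0.41, or −0.25 corrected. The lower count was 4 without PKD_DMSO replicate 2 and 7 without PKD_FP replicate 1. Dync1h1, the heavy chain of cytoplasmic dynein, stood at 37.7 and 41.7 FPKM in PKD_DMSO and 24.5 and 23.8 in PKD_FP, with the groups apart. Ahnak, a giant membrane-associated scaffold, stood at 44 and 57.7 and 38 and 39.6, also apart.

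Over all genes, few differences passed correction for multiple testing and many pointed one way in both libraries. The test took in 13810 genes, those that reached 1 FPKM in 2 or more of the 4 PKD libraries. Of these, limma with Benjamini-Hochberg adjustment at 0.05 called 1 higher (0.00724%) and 1 lower (0.00724%). At an unadjusted p under 0.05, 1478 genes were higher (10.7%) and 1316 lower (9.53%). The groups did not overlap for 4314 genes that were higher in PKD_FP (31.2%) and 3562 that were lower (25.8%). Of these, 234 and 319 differed at least 2-fold on the log2(FPKM + 1) scale. That scale understates the change of genes near or under 1 FPKM. Of the genes tested, 510 reached 1 FPKM in both PKD_FP libraries and not in both PKD_DMSO libraries, and 383 the reverse. The filter favours a difference for them. Of the lists below, the immediate-early, extracellular matrix and intercalated cell lists each held 1 of the former, and the fibroblast list 2. The cAMP pathway, fatty acid oxidation, proximal tubule transporter and macrophage lists each held 1 of the latter. Other lists with such members are marked in place. Over all tested genes the median of the log2 fold changes was 0.03, and 0.02 corrected. The counts of every list below are to be read beside the shares of all genes given here. These were 10.7% higher and 9.53% lower at an unadjusted p under 0.05, and 31.2% higher and 25.8% lower without overlap. In the text, "apart" means that the 2 values of one group lay wholly above or below those of the other, and genes other than the 2 called did not pass the threshold.

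Hbb-bt, the gene of one adult beta globin chain (GRCm38 chromosome 7, 103812524 to 103813923), was the gene called higher. It stood at 6.1 and 9.04 FPKM in the PKD_DMSO libraries, 59.8 and 67 in the PKD_FP libraries, 80.2 and 87.3 in WT_DMSO and 104 and 117 in WT_FP. The groups did not overlap, and PKD_FP lay between PKD_DMSO and WT. Its log2 fold change was 2.93 ± 0.19 (SE; limma with Benjamini-Hochberg, adjusted p = 0.0159), and the corrected value was 2.49. The interaction with genotype, which asks whether the response differed from that of WT kidney, was 2.54 and did not pass (limma, adjusted p = 0.231). The call ended without any 1 of the 4 PKD libraries (log2 fold changes 2.68 to 3.18; limma, adjusted p = 0.0662 to 0.208), in a fit of those 4 alone (0.121) and after the correction (0.105). The other globin genes stood in the same order. The alpha globin gene Hba-a2 stood at 51 and 64.5 in PKD_DMSO and 213 and 250.5 in PKD_FP (log2 fold change 1.99 ± 0.18; limma, adjusted p = 0.0503). Hba-a1 stood at 67.2 and 111 and 434 and 382 (2.22 ± 0.24; limma, adjusted p = 0.0968). The second beta globin gene, Hbb-bs, stood at 77.8 and 99 and 238 and 269 (1.52 ± 0.22; limma, adjusted p = 0.119). The pairs Hba-a1 and Hba-a2, and Hbb-bs and Hbb-bt, are near-identical copies that can share reads, so the split within a pair is uncertain.

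Of 14 erythroid markers, 8 were tested, and 2 of these, Alas2 and Slc4a1, reached 1 FPKM in both libraries of PKD_FP alone and so passed the filter through the group where they are high. The median over the 8 was 1.39, or 1.19 corrected, which is given as a description. Alas2, the erythroid enzyme of the first step of heme synthesis, stood at 0.76 and 1.18 FPKM in PKD_DMSO and 2.83 and 2.9 in PKD_FP. Slc4a1, the anion exchanger of red cells and of intercalated cells, stood at 1.17 and 0.88 and 2.89 and 5.05. Bpgm, which makes the red cell metabolite that loosens oxygen from hemoglobin and is also made outside red cells, overlapped, at 23.7 and 24.1 and 22.6 and 26. The summed level of the list was 230.3 and 312.1 FPKM in PKD_DMSO, 981.1 and 1004.5 in PKD_FP, and 1621.9 to 1881.5 over the 4 WT libraries. Of its 14 members, 5 were listed at 0 in each PKD_DMSO library and 2 in each PKD_FP library. In RNA of whole kidney, fewer cells of a type and less RNA per cell cannot be told apart, for these markers and for all lists below.

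Snord68, the other gene called, is a small nucleolar RNA (chromosome 8, 123103058 to 123103105, 48 bases) that lies within the ribosomal protein gene Rpl13 (123102350 to 123105244). It is in an intron of 3 of the 5 annotated Rpl13 transcripts and overlaps an exon of 1. It was listed at 4.63 and 4.47 FPKM in PKD_DMSO and at 0 in both PKD_FP and all 4 WT libraries (limma with Benjamini-Hochberg, adjusted p = 0.0159). No fold is given against a group listed at 0. Snord68 passed the filter through PKD_DMSO alone, the group where it is high, so its selection favoured a difference and the p is given as a description. The sources used here do not say whether strand was kept, and reads from the Rpl13 transcript over these bases cannot be told apart from its own. Rpl13 stood at 1081 and 1124 in PKD_DMSO and 1719 and 1340 in PKD_FP. The call of Snord68 ended without any 1 of the 4 PKD libraries (limma, adjusted p = 0.121 to 0.208), in a fit of those 4 libraries alone (0.121) and with a pseudocount of 0.1 (0.124), and with replicate number as a block (0.127).

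**Figure D2:**
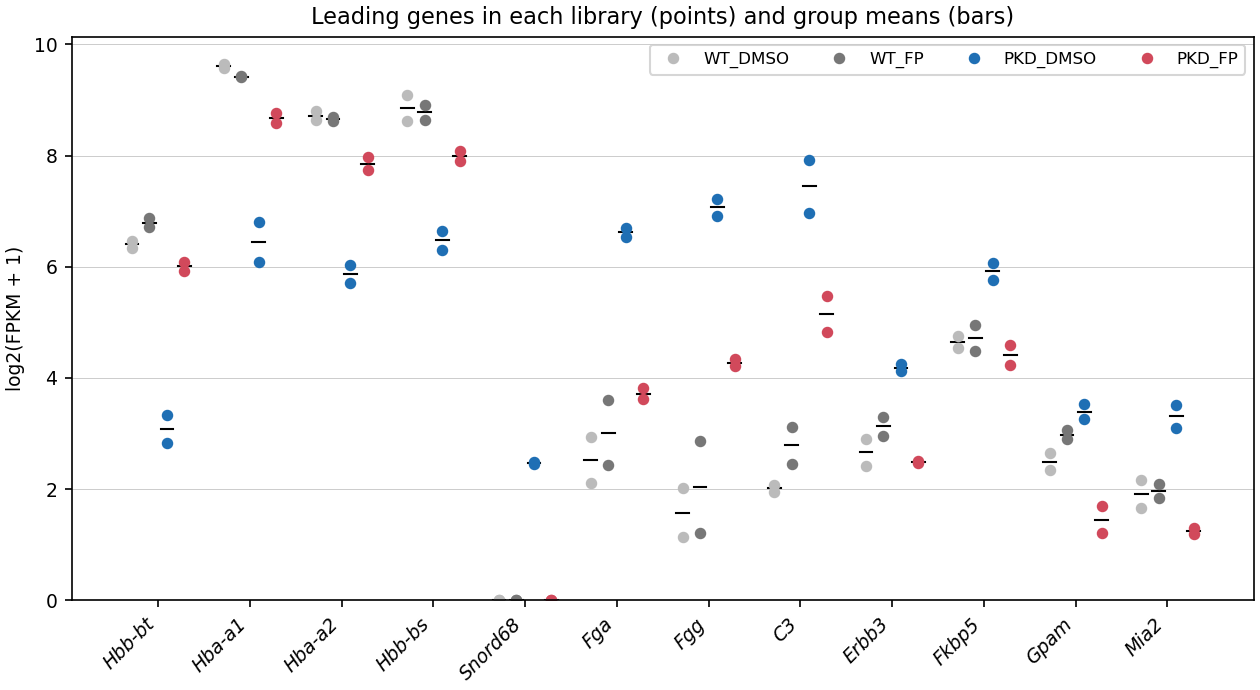
log2(FPKM + 1) (y axis) of 12 genes (x axis) in each library (points, coloured by group) with group means (bars). Hbb-bt stands at 6.1 and 9.04 FPKM in PKD_DMSO and 59.8 and 67 in PKD_FP, and for Fga, Fgg, C3, Erbb3, Fkbp5, Gpam and Mia2 both PKD_FP points lie below both PKD_DMSO points.

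After the globins, the genes with the smallest p among those higher in PKD_FP came from varied groups, and none passed the threshold. Both this set and the set of lower genes below were taken only from genes whose groups were apart. Lockd, a long noncoding RNA transcribed beside the cell cycle inhibitor gene Cdkn1b, stood at 4.68 and 5.41 FPKM in PKD_DMSO and 20.4 and 14.7 in PKD_FP (log2 fold change 1.61 ± 0.19; limma, adjusted p = 0.105). Cdkn2c, which encodes the CDK4 and CDK6 inhibitor p18, stood at 6.96 and 8.26 and 17.2 and 17.5 (1.09 ± 0.15). Each pair of PKD_FP values lay above the PKD_DMSO values and above all WT values. Cd3g, a chain of the T cell receptor complex, stood at 0.51 and 0.76 and 3.86 and 4.52 (1.67). The summed level of 20 T and NK lymphocyte markers was 11 and 14.2 FPKM in PKD_DMSO and 23.8 and 21.8 in PKD_FP. Of the 6 tested, 3 passed the filter through PKD_FP alone, Cd3g among them, and no count is given for the list. The part of these cells in the value of Cd3g was not tested. Spock3, a secreted proteoglycan gene, stood at 0.38 and 0.49 and 3.08 and 4.9 (1.78). Ascl3, a transcription factor gene, stood at 0.58 and 0.56 and 6.02 and 4.59. These genes were near or under 1 FPKM in PKD_DMSO, where the size of the log2 fold change leans on the pseudocount. Spock3 and Ascl3 too passed the filter through PKD_FP alone, so their selection favoured a difference and their p is a description. The mitochondrial ribosomal protein gene Mrpl36 stood at 34.8 and 33.3 and 66.3 and 69 (0.97, corrected 0.64). Snhg9, a noncoding host of a small nucleolar RNA, stood at 3.03 and 2.93 and 7.26 and 7.71 (1.09, corrected 0.80), and Nutf2, which imports Ran into the nucleus, at 5.98 and 5.16 and 13.6 and 13.8 (1.16, corrected 0.84). These last 3 transcripts are short, and their corrected values were smaller. The adjusted p of each was 0.119 (limma with Benjamini-Hochberg), except for Lockd.

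The genes with the smallest p among those lower in PKD_FP were of varied function, and none passed the threshold. Gpam, which catalyses the first step of triglyceride synthesis, stood at 8.54 and 10.6 FPKM in PKD_DMSO and 2.22 and 1.32 in PKD_FP (log2 fold change −1.94 ± 0.23; limma, adjusted p = 0.105). Mia2, which helps large cargo leave the endoplasmic reticulum, stood at 7.59 and 10.4 and 1.29 and 1.45 (−2.06 ± 0.24; limma, adjusted p = 0.105). Both genes were lower in PKD_FP than in any other library of the series. Erbb3, a receptor for neuregulins, stood at 16.4 and 18.1 in PKD_DMSO, 4.7 and 4.54 in PKD_FP and 4.34 and 6.45 in WT_DMSO (−1.70 ± 0.21). Fkbp5, a chaperone of the glucocorticoid receptor that glucocorticoids induce, stood at 53.2 and 66.2, 23 and 17.8 and 22.2 and 26.1 in the same groups (−1.51 ± 0.22). For both, the PKD_DMSO values lay above those of the other 6 libraries. The glutamine transporter gene Slc38a3 stood at 28.9 and 23.8 and 9.11 and 11.2 (−1.30), and Dpyd, which starts the breakdown of pyrimidines, at 6.81 and 6.4 and 1.72 and 1.53 (−1.54). Ern1, which encodes the stress sensor IRE1 of the endoplasmic reticulum, stood at 2.87 and 4.47 and 0.65 and 0.43 (−1.58). It passed the filter through PKD_DMSO alone, so its selection favoured a difference and its p is a description. Large, a glycosyltransferase that modifies dystroglycan, stood at 6.31 and 8.84 and 2.03 and 1.95 (−1.50). The remaining genes of this set were Cdcp1, a membrane substrate of Src kinases (−1.04), Zbed6, a transcription factor gene nested in an intron of another gene (−1.59), and Cyb5d1 (−1.75). All were apart, as the rule that chose them required, and their adjusted p was 0.119 where not given (limma with Benjamini-Hochberg).

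Transcripts of P-TEFb and its regulators did not pass the threshold in either direction. Cdk9, the kinase itself, stood at 27.3 and 25.4 FPKM in PKD_DMSO and 30.8 and 38.8 in PKD_FP, which were apart. Its log2 fold change was 0.38 (95% interval −0.07 to 0.84; limma, adjusted p = 0.314). The interval left out a 2-fold difference in either direction. Its partner Ccnt1 stood at 5.79 and 6.9 and 8.72 and 12.2 (0.63; limma, adjusted p = 0.394), and Ccnt2 overlapped, at 10.3 and 10.6 and 9.57 and 13.9 (0.14). The inhibitor Hexim1 stood at 33 and 31.4 and 23 and 30.6 (−0.27; limma, adjusted p = 0.388). Larp7, which stabilizes 7SK RNA, stood furthest from 0 of these, at 17.5 and 16.8 in PKD_DMSO and 30.4 and 33.4 in PKD_FP, with a fold change of 0.85 on the log2 scale (95% interval 0.34 to 1.37; limma, adjusted p = 0.13). Of the 9 genes of the complex listed and tested, 1 was higher and 0 lower at an unadjusted p under 0.05. Apart and higher were 5 (55.6%, beside 31.2% of all genes), and apart and lower 1 (11.1%, beside 25.8%). The median was 0.23, or 0.31 corrected, and 0.38 without PKD_FP replicate 1. Levels of these transcripts do not measure the activity of the kinase.

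Among 24 other elongation and pausing factors, 3 were higher and 2 lower at an unadjusted p under 0.05, near the 10.7% and 9.53% of all genes. Their median was 0.05, or 0.03 corrected, where all genes had 0.03. The counts were 0 or 1 higher and 1 lower when any 1 PKD library was left out. Supt4a, a subunit of the DSIF pausing factor, stood at 72.2 and 81.3 FPKM in PKD_DMSO and 95.4 and 73.3 in PKD_FP, and Ssrp1, a subunit of the histone chaperone FACT, at 43.6 and 51.3 and 49 and 43.6, both with overlap. The 12 subunits of RNA polymerase II had a median of 0.61, with 8 higher and 0 lower at an unadjusted p under 0.05, and a corrected median of 0.25, with 4 higher. The higher count was 5 without PKD_DMSO replicate 2. The small subunit genes Polr2f (118 and 98.8 and 178 and 189) and Polr2j (65.6 and 58 and 97.5 and 98.4) were higher in both PKD_FP libraries. Polr2a, the long transcript of the catalytic subunit that P-TEFb phosphorylates, was lower in both, at 17.4 and 18.6 and 13.5 and 15.5 (−0.30, corrected −0.11).

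Immediate-early genes, whose short-lived transcripts depend on continued transcription, had a median near that of all genes and fewer members apart in either direction. Of 33 immediate-early genes tested of 36, 0 were higher and 1 lower at an unadjusted p under 0.05, 6 were apart in each direction (18.2% each, beside 31.2% higher and 25.8% lower of all genes), and the median was 0.06, or 0.01 corrected. The share higher at an unadjusted p stood beside 10.7% of all genes, and no test of the list was made. The median was −0.08 without PKD_FP replicate 2, −0.04 without PKD_DMSO replicate 2 and 0.21 without PKD_FP replicate 1. The transcription factor gene Fos stood at 9.3 and 7.36 FPKM in PKD_DMSO and 9.01 and 12.6 in PKD_FP (0.33; limma, adjusted p = 0.452). Egr1 stood at 35.7 and 35.1 and 34.1 and 35.2, or −0.03 on the log2 scale (95% interval −0.87 to 0.81). Both overlapped between the groups. Jund, the most abundant of the list, stood at 178 and 155 and 233 and 196 (0.36, corrected 0.15), and the secreted matrix protein gene Cyr61 at 137 and 116 and 103 and 130. Dusp5, a phosphatase of ERK kinases, was the member lower at an unadjusted p, at 4.17 and 4.32 and 2.15 and 1.74 (−0.84; limma, adjusted p = 0.132).

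Survival genes of short half-life had 1 of 19 members higher and 2 lower at an unadjusted p under 0.05, and a median of −0.04, or −0.05 corrected, which was 0.22 without PKD_FP replicate 1 and 0.03 without PKD_DMSO replicate 2. Mcl1, an anti-apoptotic gene of the BCL2 family and a known sensitive transcript of CDK9 inhibition, stood at 124 and 124 FPKM in PKD_DMSO and 97.1 and 103 in PKD_FP. The groups were apart, and the log2 fold change was −0.31 (95% interval −0.67 to 0.05; limma, adjusted p = 0.306). Bcl2l1, its relative BCL-XL, overlapped at 117 and 103 and 112 and 84.3. Myc stood at 30.2 and 24.6 and 28.1 and 31.1 (0.11; limma, adjusted p = 0.797), also with overlap, and at 4.66 and 3.23 in WT_DMSO. Of 34 genes of the MYC network and its nucleolar targets, 7 were higher and 2 lower at an unadjusted p under 0.05, with a median of 0.16, or 0.10 corrected. Without PKD_DMSO replicate 2 or PKD_FP replicate 1 the higher count was 1, and without PKD_DMSO replicate 1 it was 3. The nucleolar chaperone gene Npm1 stood at 261 and 294 and 294 and 349, and the polyamine synthesis gene Odc1 at 89.4 and 90.5 and 81.8 and 55.3.

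Genes of cell division were higher in PKD_FP as a group, although none passed the threshold. Of 32 mitosis genes, all of them tested, 30 were apart and higher and 0 apart and lower, which is 93.8% beside 31.2% of all genes. At an unadjusted p under 0.05, 22 were higher and 0 lower. The median log2 fold change was 0.70, or 0.72 corrected, and lay between 0.61 and 0.80 when any 1 of the 4 PKD libraries was left out, while the higher count was 13 to 22, lowest without PKD_DMSO replicate 1. Of the 32, 2 passed the filter through PKD_FP alone. Ube2c, the ubiquitin-conjugating enzyme of the anaphase-promoting complex, stood at 14.6 and 15.7 FPKM in PKD_DMSO and 40.5 and 35.4 in PKD_FP (1.27 ± 0.22; limma, adjusted p = 0.119). Birc5, which encodes survivin of the chromosomal passenger complex, stood at 9.68 and 9.12 and 23.9 and 17.1 (1.03 ± 0.24; limma, adjusted p = 0.12). The proliferation marker Mki67 stood at 4.83 and 5.47 and 11.5 and 9.42, and Cdk1, the kinase of mitotic entry, which flavopiridol also inhibits, at 4.38 and 5.78 and 12.1 and 10.7. For all of these both PKD_FP values were above every other library of the series. The smallest difference of the list was that of Anln, a scaffold of the cleavage furrow, which overlapped at 2.89 and 3.84 and 3.91 and 3.31. The summed level of the 32 genes was 132.3 and 154.6 FPKM in PKD_DMSO, 293.4 and 250.7 in PKD_FP, 109.7 and 105.3 in WT_DMSO and 149.1 and 136.8 in WT_FP.

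Genes of DNA replication and of the earlier cell cycle leaned the same way by less. Of 29 replication genes tested of 30, 11 were higher and 0 lower at an unadjusted p under 0.05, where 10.7% of all genes were higher. Apart and higher were 18 (62.1%, beside 31.2% of all genes). The median was 0.39, or 0.38 corrected. Pcna, the sliding clamp of DNA polymerase, stood at 60.6 and 68.3 FPKM in PKD_DMSO and 82.6 and 79.8 in PKD_FP, and Slbp, which binds histone messages, at 17.3 and 16.2 and 23.8 and 30.1. Gins1, a subunit of the replicative helicase, stood highest by fold change, at 2.97 and 3.73 and 7.7 and 7.08 (0.95). With any 1 of the 4 PKD libraries left out, the median of the list ran from 0.14 (without PKD_FP replicate 1) to 0.63 (without PKD_FP replicate 2) and the higher count from 5 (without PKD_DMSO replicate 1) to 15. Of 32 other cyclin-dependent kinases, cyclins and inhibitors, 7 were higher and 0 lower at an unadjusted p under 0.05, with a median of 0.31, or 0.26 corrected, and this list holds Cdk1 and mitotic cyclins of the list above. The kinase gene Cdk4 stood at 97.4 and 94.6 and 127 and 117 and its partner Ccnd1 at 85.8 and 92.2 and 153 and 95.1. Of 6 replication-dependent histone genes tested of 16, all were apart and higher. Their median length was 941.5 bases, and the share was 100%, beside 31.2% of all genes and 54.8% of the shortest bin of transcripts. The median log2 fold change of the 6 was 0.63, or 0.48 corrected. It was 0.96 without PKD_FP replicate 1 and 0.45 without PKD_FP replicate 2. These messages lack polyadenylated tails, so few are caught by oligo dT.

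**Figure D3:**
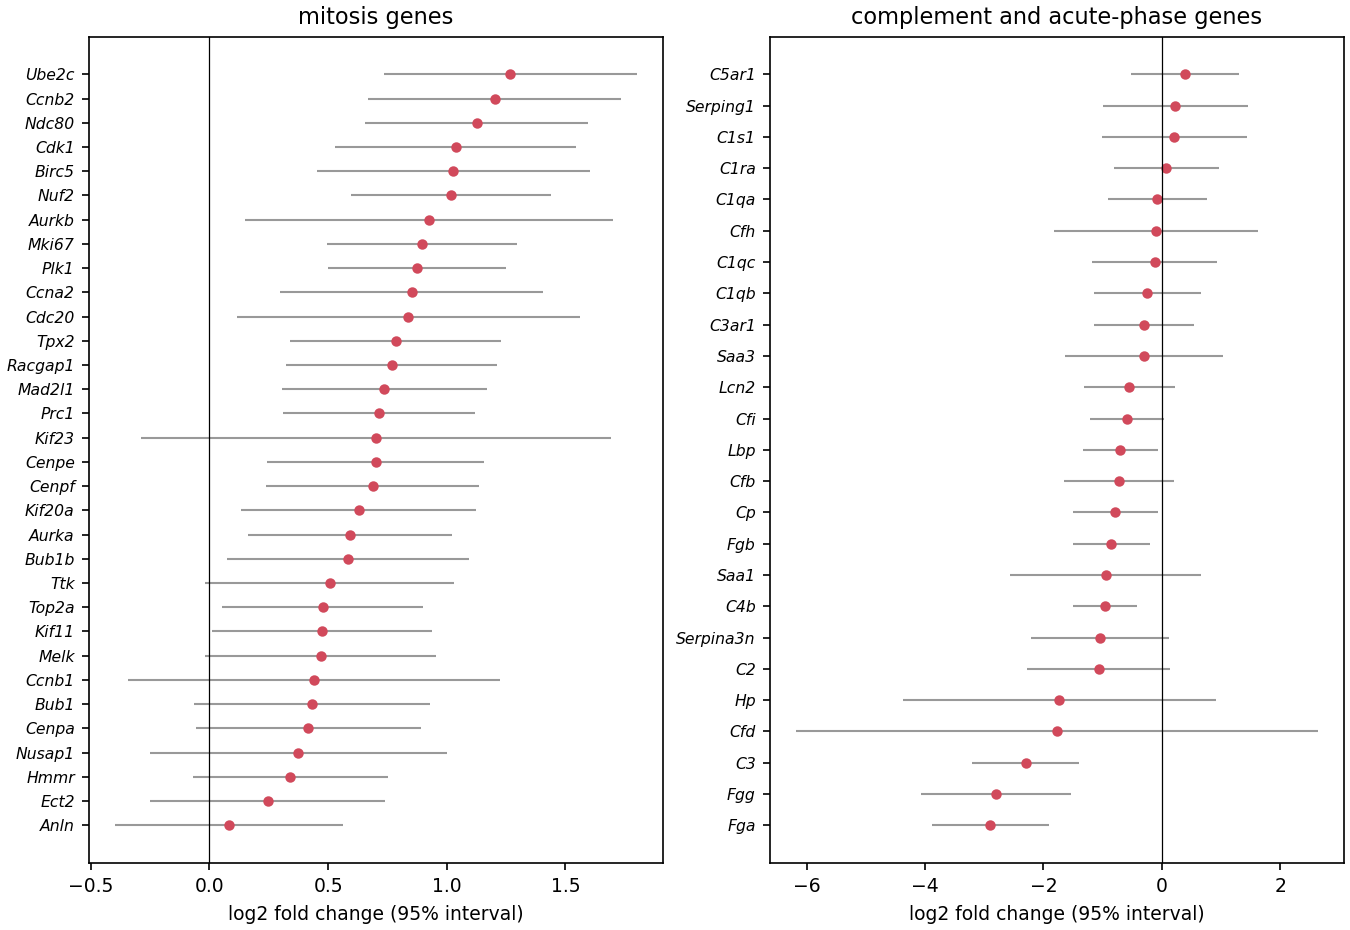
Log2 fold change of PKD_FP against PKD_DMSO (x axis, points) with its 95% interval from limma (lines) for the 32 mitosis genes (left) and the 25 complement and acute-phase genes tested (right), ordered by value. All 32 mitosis points lie above 0, from 0.08 for Anln to 1.27 for Ube2c, and the complement points run from 0.39 down to −2.90 for Fga.

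The 250 bases upstream of the start of 3 of the mitosis genes are shown because the members pointed one way and such promoters are known for a cell cycle element and CCAAT boxes (RefSeq, GRCm38.p6, each 5′ to 3′ on the strand of its gene). Capitals mark TTTGAA, the core of the cell cycle genes homology region, and CCAAT, on either strand (TTCAAA and ATTGG on the opposite strand).
Ube2c chr2:164769679-164769928 (+): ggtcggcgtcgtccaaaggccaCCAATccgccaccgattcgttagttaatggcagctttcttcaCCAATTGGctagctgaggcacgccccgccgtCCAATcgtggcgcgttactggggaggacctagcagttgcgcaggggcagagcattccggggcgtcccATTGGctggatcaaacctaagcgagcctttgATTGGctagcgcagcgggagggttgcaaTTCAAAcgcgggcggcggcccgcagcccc
Ccnb2 chr9:70421555-70421804 (−): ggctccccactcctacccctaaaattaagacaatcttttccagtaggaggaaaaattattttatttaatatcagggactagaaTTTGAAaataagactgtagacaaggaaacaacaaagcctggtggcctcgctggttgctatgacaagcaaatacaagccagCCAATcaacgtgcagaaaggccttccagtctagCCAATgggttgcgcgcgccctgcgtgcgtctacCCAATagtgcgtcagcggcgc
Ndc80 chr17:71526858-71527107 (−): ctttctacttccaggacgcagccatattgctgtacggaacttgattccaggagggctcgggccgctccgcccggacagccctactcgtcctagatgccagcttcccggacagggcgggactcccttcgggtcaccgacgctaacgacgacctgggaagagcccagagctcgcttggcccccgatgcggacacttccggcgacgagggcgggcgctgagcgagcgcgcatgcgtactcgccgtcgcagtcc
TTTGAA occurred 1 time in the windows of Ube2c and Ccnb2, and CCAAT 6 times in that of Ube2c, 2 of these overlapping, and 3 times in that of Ccnb2. The window of Ndc80 held neither. Over the 28 mitosis genes with a window, 9 held TTTGAA (32.1%) and 21 held CCAAT (75%), beside 16% and 33.8% of all 32851 windows. The units are unlike, because a gene counted if any of its windows held a match, which can raise the share of genes. The 28 genes include the 3 shown, and Ube2c and Ccnb2 count for both motifs. A match describes these letters only. Ccnb2, a mitotic cyclin, stood at 5.61 and 5.6 FPKM in PKD_DMSO and 17 and 11.8 in PKD_FP, and Ndc80, which ties the kinetochore to microtubules, at 1.59 and 1.66 and 4.99 and 4.48 (log2 fold changes 1.20 and 1.13).

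Complement and acute-phase genes were lower in PKD_FP as a group, led by fibrinogen and C3, and none passed the threshold. Of 28 listed, 25 were tested, 12 were apart and lower (48%, beside 25.8% of all genes) and 0 apart and higher. At an unadjusted p under 0.05, 0 were higher and 7 lower. The median was −0.70, or −0.75 corrected, and ran from −0.83 to −0.31 when any 1 PKD library was left out, nearest 0 without PKD_FP replicate 1. Of the 25, 2 passed the filter through PKD_DMSO alone. Fga, the alpha chain of the clotting protein fibrinogen, stood at 91.4 and 103 FPKM in PKD_DMSO, 13.2 and 11.3 in PKD_FP, 3.33 and 6.7 in WT_DMSO and 11.1 and 4.37 in WT_FP. Its log2 fold change was −2.90 ± 0.41 (limma, adjusted p = 0.119). Fgg, the gamma chain, stood at 119 and 149 in PKD_DMSO, 19.3 and 17.4 in PKD_FP and 1.2 and 3.04 in WT_DMSO (−2.80 ± 0.53; limma, adjusted p = 0.119). Fgb, the beta chain, was lower by less, at 17.7 and 19.4 and 8.55 and 11.2 (−0.86 ± 0.27; limma, adjusted p = 0.169). All 3 chains were apart and, in PKD_FP, were still above the WT_DMSO libraries.

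C3, the central complement protein, stood at 241 and 124 FPKM in PKD_DMSO, 27.2 and 43.2 in PKD_FP and 2.86 and 3.22 in WT_DMSO (−2.30 ± 0.38; limma, adjusted p = 0.119). C4b stood at 6.02 and 7.58 and 2.87 and 3.08 (−0.97). C1qa, a chain of C1q that macrophages make, overlapped at 123 and 233 and 140.5 and 183 (−0.08). Lcn2, the iron-binding injury protein NGAL and one of the most abundant of the list, overlapped too, at 1125 and 741 and 476 and 819 (−0.55; limma, adjusted p = 0.379). Of 25 macrophage and myeloid markers, all tested, 0 were higher and 2 lower at an unadjusted p under 0.05. Their median was −0.33, or −0.48 corrected, and their summed level was 1084.1 and 1864.5 FPKM in PKD_DMSO and 1089.9 and 1436.4 in PKD_FP, with none at 0. Their median was −0.83 with 12 lower without PKD_DMSO replicate 1, −0.63 with 7 lower without PKD_FP replicate 2, −0.04 without PKD_FP replicate 1, and 0.13, with the sign turned, without PKD_DMSO replicate 2. Their part in the values of the complement list was not tested.

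The windows upstream of the fibrinogen genes, which lie side by side on chromosome 3, are shown because their 3 chains are made together as an acute-phase response to IL-6 (RefSeq, GRCm38.p6, 250 bases before each start, 5′ to 3′ on the strand of the gene). Capitals mark CTGGGA, known from IL-6 responsive promoters, and TTCNNNGAA, the letters that STAT3 binds, searched on both strands.
Fga chr3:83025903-83026152 (+): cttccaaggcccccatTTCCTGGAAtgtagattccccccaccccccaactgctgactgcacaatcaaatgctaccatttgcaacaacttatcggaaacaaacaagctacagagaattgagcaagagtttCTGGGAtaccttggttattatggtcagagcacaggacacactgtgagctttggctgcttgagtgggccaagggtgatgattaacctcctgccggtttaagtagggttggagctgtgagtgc
Fgb chr3:83049864-83050113 (−): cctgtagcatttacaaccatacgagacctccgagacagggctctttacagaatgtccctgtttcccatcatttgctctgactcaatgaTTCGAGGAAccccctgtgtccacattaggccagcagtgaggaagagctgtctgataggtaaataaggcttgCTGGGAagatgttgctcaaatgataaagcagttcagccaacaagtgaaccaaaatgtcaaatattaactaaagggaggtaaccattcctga
Fgg chr3:83007474-83007723 (+): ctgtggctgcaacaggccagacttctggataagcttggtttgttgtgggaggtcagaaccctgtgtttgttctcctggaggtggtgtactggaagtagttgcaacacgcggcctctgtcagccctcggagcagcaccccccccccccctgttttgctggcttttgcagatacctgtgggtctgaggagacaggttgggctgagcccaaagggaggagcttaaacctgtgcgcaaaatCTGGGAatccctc
CTGGGA occurred 1 time in each of the 3 windows, and TTCNNNGAA 1 time in those of Fga and Fgb. Over the 16 complement and acute-phase genes with a window, 7 held CTGGGA (43.8%) and 2 held TTCNNNGAA (12.5%), beside 27% and 7.02% of all 32851 windows. Here too genes with a match in any window are set beside single windows, which can raise the share of genes. The 16 genes include the 3 shown. Fga and Fgb are the 2 with TTCNNNGAA, and all 3 chains are among the 7 with CTGGGA. Fgg, whose window held no TTCNNNGAA, had a log2 fold change of −2.80, and Fgb, whose window held one, −0.86. The letters describe the windows and say nothing of the binding of a factor.

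Genes of tubule injury were mixed. Of 36 tested, 2 were higher and 10 lower at an unadjusted p under 0.05. Apart and higher were 7 (19.4%, beside 31.2% of all genes), and apart and lower 14 (38.9%, beside 25.8%). The list had a median of −0.16, or −0.37 corrected. The median was −0.07 without PKD_FP replicate 1 and −0.27 without PKD_FP replicate 2, and the lower count was 4 without PKD_DMSO replicate 2 or PKD_FP replicate 1. Fga and Fgg belong to this list too. Havcr1, the proximal tubule injury marker KIM-1, stood at 108 and 143 FPKM in PKD_DMSO and 60.5 and 65.6 in PKD_FP, apart but not past the threshold (−0.97; limma, adjusted p = 0.375). Mmp7, a matrix metalloproteinase of injured tubules, stood at 71.3 and 59.5 and 9.14 and 27 (−1.97 ± 0.44; limma, adjusted p = 0.119). Krt20, a keratin of injured tubule cells, stood at 36.3 and 35.8 and 10.1 and 11.6 (−1.65 ± 0.44; limma, adjusted p = 0.141). All 3 were far above their WT_DMSO values in each PKD library, which were at most 1.08 FPKM. Spp1, which encodes osteopontin and was the most abundant of the list, overlapped at 10168 and 10813 and 10073 and 11039 (0.01). The calcium-binding protein gene S100a11 was higher in both PKD_FP libraries, at 1370.1 and 969 and 1796 and 2827 (0.97, corrected 0.48).

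Genes of cyst biology showed no common direction. Pkd1, which encodes polycystin 1, overlapped at 3.42 and 4.94 FPKM in PKD_DMSO and 3.22 and 4.34 in PKD_FP (−0.11; limma, adjusted p = 0.856). Pkd2, which encodes polycystin 2, stood at 41.5 and 48.4 and 36.8 and 38.2 (−0.25; limma, adjusted p = 0.339). These are values of whole genes and cannot show whether a single exon was lost. Of 24 polycystin and cyst modifier genes tested of 26, 1 was higher and 4 lower at an unadjusted p under 0.05, with a median of −0.03, also −0.03 corrected. The lower count was 1 without PKD_DMSO replicate 2 and 2 without PKD_FP replicate 2. The abundant member Prkcsh, which serves glycoprotein folding and is mutated in polycystic liver disease, overlapped at 77.6 and 71.2 and 82.7 and 67.1. Glis3, a transcription factor whose loss causes cysts, stood at 16 and 16 and 9.22 and 9.35 (−0.73 ± 0.16; limma, adjusted p = 0.119; corrected −0.51). Pkhd1, the gene of recessive polycystic kidney disease, stood at 15.2 and 20.2 and 11.9 and 10.2 (−0.62, corrected −0.42).

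Genes of the cAMP pathway and its kinase PKA had 2 of 36 tested members higher and 6 lower at an unadjusted p under 0.05, and a median of −0.10, or −0.05 corrected, which ran from −0.22 without PKD_DMSO replicate 1 to 0.01 without PKD_FP replicate 1. Gnas, whose main product is the stimulatory G protein of adenylyl cyclase, stood at 499.6 and 452 FPKM in PKD_DMSO, 801 and 1021 in PKD_FP and 1021 and 721 in WT_DMSO (0.93 ± 0.27; limma, adjusted p = 0.152). The PKD_DMSO values of Gnas were below those of the other 6 libraries. Prkar1a, a regulatory subunit of protein kinase A, stood at 93.2 and 102 and 108 and 115 (0.19), and Prkar2a, another regulatory subunit, was lower in both PKD_FP libraries, at 14.5 and 18.2 and 9.12 and 7.52 (−0.89; limma, adjusted p = 0.119). Akap12, a scaffold that anchors the kinase, stood at 81.3 and 112 and 47.1 and 43.2 (−1.06; limma, adjusted p = 0.161). Among EGF ligands and ERBB receptors, which drive cyst growth, 0 of 10 tested were higher and 3 lower at an unadjusted p under 0.05, Erbb3 (above) among them, with a median of −0.26, or −0.14 corrected. The lower count was 1 without PKD_DMSO replicate 2 or PKD_FP replicate 2. The feedback inhibitor gene Errfi1 stood at 124 and 145 and 60.5 and 63.3 (−1.10; limma, adjusted p = 0.163), and the ligand gene Hbegf overlapped at 43.2 and 29.3 and 35.1 and 48.3.

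Transporters and metabolic enzymes of the proximal tubule were lower in PKD_FP as a group. Of 35 proximal tubule transporters tested of 39, 23 were apart and lower (65.7%, beside 25.8% of all genes) and 2 apart and higher, and 11 were lower and 2 higher at an unadjusted p under 0.05. The median was −0.66, or −0.72 corrected, and −0.85 to −0.43 when any 1 PKD library was left out, nearest 0 without PKD_FP replicate 2. The lower count was then 5 without PKD_DMSO replicate 1, 6 without PKD_FP replicate 2, 7 without PKD_DMSO replicate 2 and 14 without PKD_FP replicate 1. Slc6a19, the main neutral amino acid transporter of the brush border, stood at 37 and 26.3 FPKM in PKD_DMSO, 4.8 and 4.02 in PKD_FP, 20.7 and 33.6 in WT_DMSO and 41.1 and 18.7 in WT_FP (−2.58 ± 0.39; limma, adjusted p = 0.119). Both PKD_FP values were below those of the other 6 libraries. Its relative Slc6a18, a glycine and alanine transporter, stood at 173 and 195 and 164 and 111 (−0.44). The phosphate transporter gene Slc34a1, given above, overlapped (−0.37) and had the opposite sign without PKD_DMSO replicate 1. Slc7a13, an amino acid transporter of the last proximal segment, had the opposite sign, at 1.95 and 1.21 in PKD_DMSO and 16.5 and 3.96 in PKD_FP (1.87 ± 0.64). The summed level of 20 proximal tubule markers, which include the abundant androgen-regulated transcript Kap, was 6060.1 and 3406.8 FPKM in PKD_DMSO and 5238.4 and 5956.9 in PKD_FP, against 25176.8 to 36881.4 over the WT libraries. The median of these markers was −0.48, or −0.45 corrected, and it was −0.23 without PKD_DMSO replicate 1, −0.20 without PKD_FP replicate 2 and −0.77 without PKD_DMSO replicate 2. Their part in the values of the transporters was not tested.

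The 7 gluconeogenesis genes had the lowest median of the pathway lists, −1.35, or −1.33 corrected. At an unadjusted p under 0.05, 4 were lower and 0 higher, and 5 were apart and lower (71.4%, beside 25.8% of all genes). With any 1 PKD library left out the median was −1.54 to −1.05 and the lower count 1 to 4, lowest without PKD_DMSO replicate 1 and 2 without PKD_FP replicate 2. G6pc, whose enzyme releases free glucose, stood at 62.3 and 53.8 FPKM in PKD_DMSO, 13.3 and 14.3 in PKD_FP and 98.3 and 190.1 in WT_DMSO (−1.99 ± 0.44; limma, adjusted p = 0.119). Pck1, which makes phosphoenolpyruvate from oxaloacetate, stood at 714 and 359.9 and 143 and 212 (−1.54 ± 0.53; limma, adjusted p = 0.185). The PKD_DMSO replicates of Pck1 differed from each other, yet both were above both PKD_FP values.

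Enzymes of fat burning and of fat making both leaned lower, and none passed the threshold. Of 36 fatty acid oxidation genes, 11 were lower and 1 higher at an unadjusted p under 0.05. Apart and lower were 17 (47.2%, beside 25.8% of all genes). The median was −0.38, also −0.38 corrected. It was −0.20 without PKD_DMSO replicate 1 and −0.16 without PKD_FP replicate 2, each with 4 lower, and −0.59 with 13 lower without PKD_FP replicate 1. The abundant mitochondrial member Etfb, which carries electrons from the oxidation steps, was higher, at 299 and 192 FPKM in PKD_DMSO and 439.5 and 354 in PKD_FP (0.72, corrected 0.34), and Acadl, a long-chain dehydrogenase, overlapped at 114 and 96.3 and 105 and 115. Of 20 genes of fatty acid and triglyceride synthesis, 6 were lower and 0 higher at an unadjusted p under 0.05. Apart and lower were 13 (65%, beside 25.8% of all genes), and the median was −0.37, or −0.31 corrected. With any 1 PKD library left out the median was −0.50 to −0.36 and the lower count 3 or 4. The desaturase gene Scd1 stood at 36 and 26.8 and 9.42 and 7.52 (−1.77 ± 0.48), and Fads2, the desaturase of polyunsaturated fats, at 35 and 36.5 and 11 and 5.64 (−2.04 ± 0.71). The most abundant members differed by less, with Scd2 at 63.3 and 70.3 and 59.8 and 47.8 and Elovl1 at 59.4 and 50.9 and 58.8 and 42.2. Of 24 cholesterol synthesis genes, 7 were lower and 0 higher at an unadjusted p under 0.05. Apart and lower were 16 (66.7%, beside 25.8% of all genes), and the median was −0.37, or −0.38 corrected. It was −0.17 with 1 lower without PKD_FP replicate 2 and −0.61 with 11 lower without PKD_FP replicate 1, and 2 were lower without either PKD_DMSO replicate. Hmgcs1, an early enzyme of the pathway, stood at 89.5 and 82.3 and 66.4 and 68, and Fdps, which makes farnesyl pyrophosphate, at 46.2 and 43 and 41.9 and 28.2.

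Of 34 drug-metabolizing enzymes, 10 were lower and 1 higher at an unadjusted p under 0.05. Apart and lower were 17 (50%, beside 25.8% of all genes). Of the 34, 2 reached 1 FPKM in both PKD_DMSO libraries and not in both PKD_FP libraries, so the filter favours a difference for them. The median of the list was −0.57, or −0.64 corrected. With any 1 PKD library left out it was −0.90 to −0.45, and the lower count 3 (without PKD_DMSO replicate 1), 6 (without PKD_FP replicate 2), 8 or 11. Fmo2, a flavin monooxygenase, stood at 43.4 and 41.9 FPKM in PKD_DMSO, 7.61 and 4.15 in PKD_FP, 35.2 and 65.4 in WT_DMSO and 73.1 and 33.2 in WT_FP (−2.71 ± 0.45; limma, adjusted p = 0.119). The PKD_FP libraries were the lowest of the 8. The sulfotransferase gene Sult1d1 stood at 272 and 352 and 135 and 84.5 (−1.53 ± 0.28; limma, adjusted p = 0.119), while the glutathione transferase gene Gstt1 was higher in both PKD_FP libraries, at 98.6 and 86.8 and 158 and 118 (0.56).

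**Figure D4:**
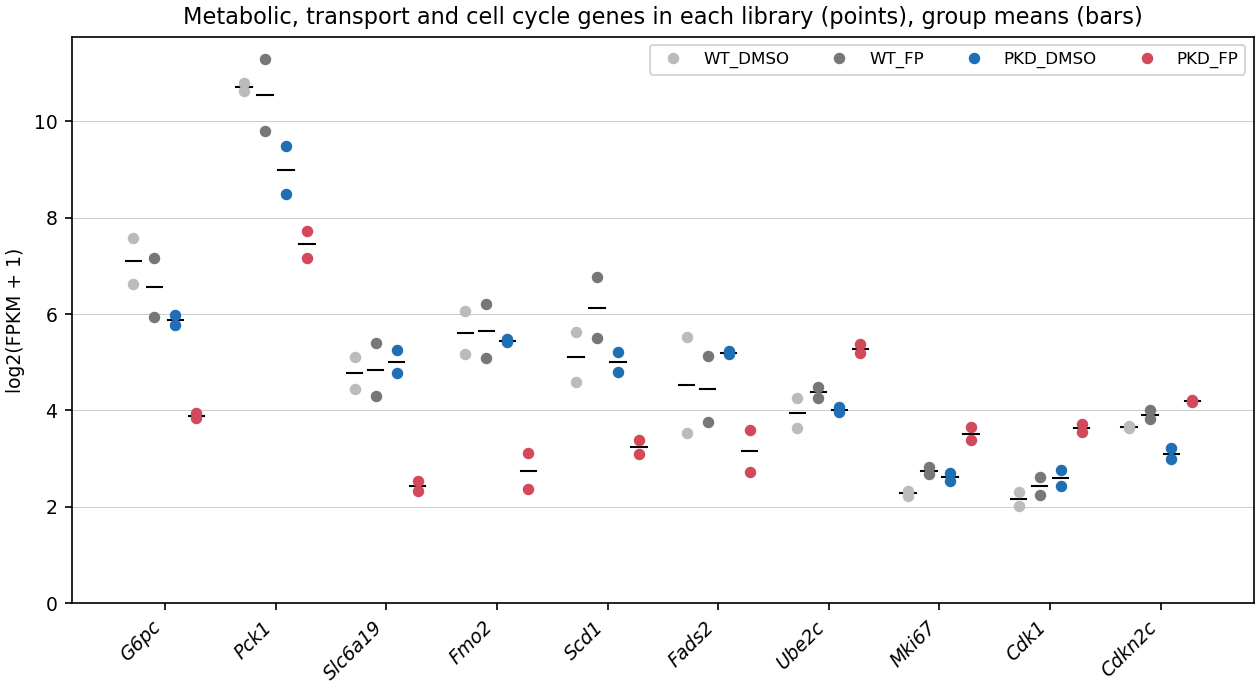
log2(FPKM + 1) (y axis) of 6 metabolic and transport genes and 4 cell cycle genes (x axis) in each library (points, coloured by group) with group means (bars). For G6pc, Slc6a19 and Fmo2 the PKD_FP points are the lowest of the 8 libraries, and for Ube2c, Mki67, Cdk1 and Cdkn2c they are the highest.

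Oxidative phosphorylation and ribosomal protein genes, whose transcripts are short (median lengths 1141 and 1054 bases), were higher in PKD_FP by count, by an amount that the correction reduced. Of 75 oxidative phosphorylation genes, 42 were higher and 0 lower at an unadjusted p under 0.05. Apart and higher were 54 (72%, beside 31.2% of all genes and 54.8% of the shortest bin of transcripts), and the median was 0.48. After correction the median was 0.20 with 24 higher, and after quantile normalization 0.32 with 31 higher and 2 lower. The higher count was 26 without PKD_DMSO replicate 2 and 28 without PKD_FP replicate 1. Cox4i1 and Cox8a, subunits of cytochrome oxidase, stood at 1089 and 848 FPKM and 934 and 714 FPKM in PKD_DMSO and at 1629 and 1371 and 1482 and 1264 in PKD_FP. Their log2 fold changes of 0.64 and 0.74 became 0.19 and 0.22. Ndufa5 of complex I kept more of its difference, at 149 and 112 and 297 and 307 (1.22 ± 0.28, corrected 0.86), and Atp5b, the catalytic subunit of ATP synthase, was lower in both PKD_FP libraries, at 907 and 854 and 735 and 391 (−0.72). Of 80 cytosolic ribosomal protein genes, 52 were higher and 0 lower at an unadjusted p under 0.05. Apart and higher were 64 (80%, beside 31.2% of all genes and 54.8% of the shortest bin of transcripts), and the median was 0.49. After correction the median was 0.22 with 16 higher, and after quantile normalization it was 0.15 with 6 higher and 5 lower. The higher count was 23 and 18 without PKD_DMSO replicate 1 and 2, 19 without PKD_FP replicate 1 and 53 without PKD_FP replicate 2. The most abundant, Rpl41 (2503 and 2270 and 3372 and 2206), overlapped and Rplp1 (1819 and 1801 and 2857 and 2199.8) was apart. Both had negative corrected values, −0.26 and −0.04. Rpl3, one of the longer ribosomal protein transcripts, was lower in both PKD_FP libraries, at 704 and 775 and 633 and 423 (−0.51).

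**Figure D5:**
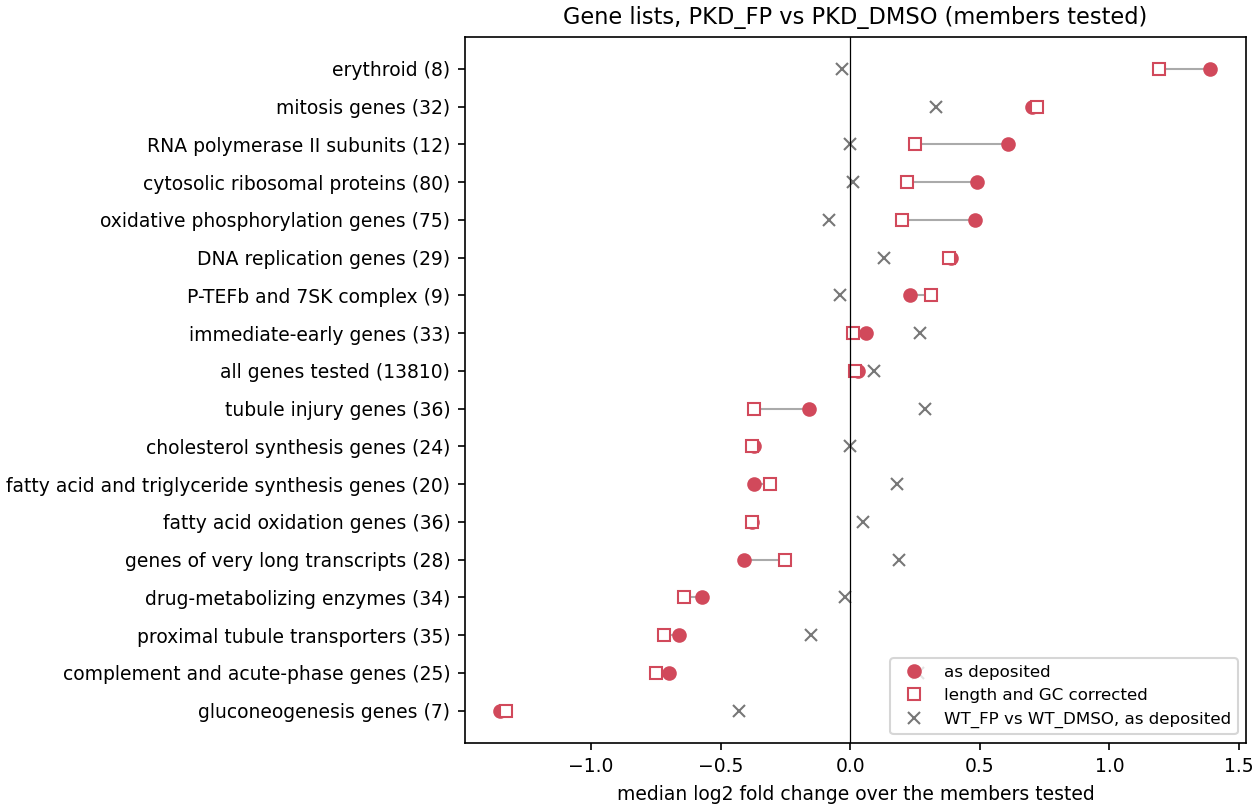
Median log2 fold change over the tested members (x axis) of each gene list (y axis, number tested in brackets) for PKD_FP against PKD_DMSO as deposited (filled red) and corrected for length and GC content (open red), and for WT_FP against WT_DMSO (crosses). The medians of mitosis (0.70), complement and acute-phase (−0.70) and gluconeogenesis genes (−1.35) stay near those values after the correction, while those of RNA polymerase II, ribosomal protein and oxidative phosphorylation genes move from 0.61, 0.49 and 0.48 to 0.25, 0.22 and 0.20.

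Fewer genes had an unadjusted p under 0.05 in WT kidney. With the same limma model, 0 of the 13810 genes passed between WT_FP and WT_DMSO after adjustment and 159 (1.15%) had an unadjusted p under 0.05. Across genes, the correlation was 0.969 between the WT_DMSO libraries and 0.965 between the WT_FP libraries. It was higher between WT_DMSO replicate 2 and WT_FP replicate 1 (0.987) and between WT_DMSO replicate 1 and WT_FP replicate 2 (0.981). The low count therefore does not show that WT kidney responded less, and its cause was not tested. Because the fit shares its estimate of spread over all groups, the WT replicate differences also enter the PKD p-values and intervals. The test of the difference between the PKD and WT responses called 0 genes after adjustment (limma with Benjamini-Hochberg; the adjusted p of Hbb-bt was 0.231, and none was smaller) and 1589 (11.5%) at an unadjusted p under 0.05, so no gene is shown to respond differently in the 2 genotypes. For the mitosis genes the median was 0.33 in WT and 0.70 in PKD kidney. For the complement and acute-phase genes it was 0.26 in WT and −0.70 in PKD kidney, and for the oxidative phosphorylation genes −0.08 and 0.48. Some lists had the same sign in both, as the mitosis genes did. The median was −0.53 in WT and −0.55 in PKD kidney for MHC class II genes, and −0.43 and −1.35 for gluconeogenesis genes. It was −0.36 and −0.48 for proximal tubule markers and 0.37 and 0.49 for fibroblast and myofibroblast markers. No WT library was left out in turn. Summed levels of gluconeogenesis genes overlapped in WT, at 4910.3 and 6210.4 FPKM in WT_DMSO and 6050 and 2857.6 in WT_FP. Those of fibroblast markers did too, at 531.6 and 210.6 and 385.1 and 504.4. The sums of MHC class II genes and proximal tubule markers were apart in WT. Erbb3 had an interaction of −2.16 (limma, adjusted p = 0.326), Fga of −3.38 (limma, adjusted p = 0.377) and Cdk9 of 0.26 (limma, adjusted p = 0.769).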

How the data were processed

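Polyadenylated RNA of whole mouse kidney was measured in 8 libraries, 2 per group, grouped by their labels. The deposited values are FPKM with 2 decimals for 20245 entries per library. The file headers name no unit, and FPKM was inferred from the deposited values, which are not whole numbers and whose product with transcript length sums to a similar total in every library (1234772 to 1290697 kilobase FPKM). Bowtie2, DESeq2 and mm10 appear, with neither version nor role, per the submitters' processing notes. The sources used here do not give the counting tool, the annotation or its gene lengths. Read depth is unknown, which leaves no counting interval, and the number of libraries limits the precision.

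After 4 entries of repeated symbols and 1 without a symbol were left out, 20240 genes remained. Those with at least 1 FPKM in at least 2 of the 4 PKD libraries (13810) were fitted as log2(FPKM + 1) over all 8 libraries with 1 mean per group, using limma 3.58.1 (R 4.3.3), whose moderated variances followed a mean trend and were robust to outlying genes. P-values are two-sided, from the contrast PKD_FP minus PKD_DMSO, with Benjamini-Hochberg adjustment over all genes tested and a threshold of 0.05. The interaction with genotype came from the same fit. Symbols were matched to RefSeq (GRCm38.p6, the assembly of mm10; 20149 matched) for positions and to GENCODE for transcript length and GC content (19925 matched). The correction for both used a smooth curve per library (mgcv 1.9.3). The test code was checked on simulated data with independent errors and no length trend between the PKD groups. That check therefore does not cover the length trend seen here.

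The genes named are 14 fixed ones, the 12 per direction with the smallest p, and for lists members of the highest mean level. The 12 were taken only from genes whose groups were apart and whose mean log2(FPKM + 1) over the 4 PKD libraries was at least 1. Predicted genes, microRNAs and small nucleolar RNAs are skipped by that rule, and 1 of the fixed genes and some list members are not reported here. Snord68 and the other list members were chosen for naming after their values had been seen. The comparison, the gene lists and the cell type markers were chosen with earlier results of these data known. Lists are described by counts and medians with no test of their own. The alternatives tried were other filters, pseudocounts and scalings, the length and GC correction, the 4 PKD libraries alone, replicate number as a block, moderation without trend and robust settings, and each PKD library left out.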

Additional observations from a re-analysis of the deposited data

How the results depend on the processing

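The 2 called genes were few enough that most alternatives moved their number, and the cause was not tested. Without the low-value filter, and with the trend and robust settings off, 3 genes were higher and 2 lower. With the 5 FPKM filter, which leaves Snord68 out, with a pseudocount of 0.1 and with replicate number as a block, 1 was higher and 0 lower. After length and GC correction 0 were higher and 1 lower. In a fit of the 4 PKD libraries alone, with the block and that correction together, and without any 1 PKD library, which leaves fewer samples, 0 were higher and 0 lower. At an unadjusted p under 0.05 the counts ran from 701 to 1059 higher and from 605 to 1075 lower when 1 PKD library was left out. Without PKD_FP replicate 2 they were 912 and 805, and without PKD_DMSO replicate 2 701 and 605. After median-of-ratios scaling they were 1363 and 1432. The interaction called 3 genes without the low-value filter and 0 in each other alternative where it could be fitted, which leaves out the 4 PKD libraries alone. The length trend of −0.55 was −0.32 without that filter, −0.02 after the length and GC correction, which removes it by construction, and −0.67 to −0.42 when 1 library was left out. The median of all genes ran from −0.01 to 0.08.

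Replicate numbers did not pair the libraries. The correlation between the replicate differences of PKD_DMSO and PKD_FP was 0.09, and it ran from −0.55 to 0.51 over the other pairs of groups. The block ended the call of Snord68 and changed no other call.

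Of 125 named genes followed through 15 alternatives, 25 took the opposite sign in at least 1, most of them near 0. With 1 PKD library left out, log2 fold changes ran from −0.08 to 0.12 for Bpgm, −0.06 to 0.07 for Spp1, −0.14 to 0.15 for Prkcsh, −0.11 to 0.50 for Rpl41, −0.05 to 0.19 for Acadl, −0.09 to 0.19 for Mt1, −0.56 to 0.93 for Bgn, −0.32 to 0.10 for Pkd1, −0.06 to 0.31 for Supt4a, −0.07 to 0.24 for Anln, −0.81 to 0.08 for Slc34a1, −0.15 to 0.78 for Cx3cl1, −0.01 to 0.80 for Sparc, −0.54 to 0.38 for C1qa, −0.03 to 0.25 for Myc, −0.07 to 0.48 for Hbegf, −0.15 to 0.08 for Ssrp1, −0.47 to 0.19 for Mt2, −0.29 to 0.04 for Cyr61, −0.11 to 0.38 for Ccnt2, −0.37 to 0.09 for Elovl1 and −0.38 to 0.03 for Bcl2l1. The length and GC correction, with and without the block, gave −0.05 for Bpgm, −0.16 for Spp1, −0.09 for Prkcsh, −0.26 for Rpl41, −0.04 for Rplp1 and Acadl, −0.21 for Mt1, 0.05 for Pkd1, 0.02 for Egr1 and −0.24 for Supt4a. Quantile normalization gave −0.01 for Bpgm, −0.05 for Prkcsh, −0.09 for Rpl41, −0.04 for Acadl, −0.24 for Mt1 and 0.00 for Rplp1, Umod and Bgn. Median-of-ratios scaling gave −0.03 for Bpgm, −0.04 for Spp1 and −0.05 for Prkcsh. Hba-a2 passed with the trend and robust settings off (limma, adjusted p = 0.0343). With 2 libraries per group and unknown read depth, values near 1 FPKM are the least certain.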

Other observations

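Markers of the collecting duct had medians above 0. Of 13 principal cell markers, 8 were apart and higher (61.5%, beside 31.2% of all genes) and 1 apart and lower, while 1 was higher at an unadjusted p under 0.05, and the median was 0.70, or 0.54 corrected for length and GC content. It was 0.41 without PKD_DMSO replicate 2 and 0.97 without PKD_FP replicate 1. The water channel gene Aqp2 stood at 385 and 399.8 FPKM in PKD_DMSO and 548 and 854 in PKD_FP (0.80), and Hsd11b2, which shields the mineralocorticoid receptor from cortisol, at 123 and 82.7 and 175 and 127 (0.56). Of 17 intercalated cell markers tested of 18, 6 were higher and 1 lower at an unadjusted p under 0.05, 6 were apart and higher (35.3%, near the 31.2% of all genes), and the median was 0.31, or 0.27 corrected. The median was 0.06 with 3 higher without PKD_DMSO replicate 2, 0.17 with 4 higher without PKD_FP replicate 1, and 0.68 and 0.70 without PKD_DMSO replicate 1 and PKD_FP replicate 2. The carbonic anhydrase genes Car2 (134 and 109.8 and 206 and 201) and Car15 (85.5 and 76 and 131 and 122) were apart and higher. The summed level of the list was 585.6 and 444.4 FPKM in PKD_DMSO and 705.6 and 619.8 in PKD_FP.

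Antioxidant genes under NRF2 had a median below 0. Of 25 tested of 27, 0 were higher and 5 lower at an unadjusted p under 0.05, 11 were apart and lower (44%, beside 25.8% of all genes), and the median was −0.33, or −0.31 corrected. It was −0.08 without PKD_DMSO replicate 1 and −0.11 without PKD_FP replicate 2, each with 3 lower. Gpx3, the abundant plasma glutathione peroxidase made by the proximal tubule, overlapped at 12373 and 7634 FPKM and 8276 and 6332, and Fth1, the ferritin heavy chain, stood at 3527 and 2926 and 2613 and 1973. Gsta1, a glutathione transferase, stood at 72.4 and 45.4 and 18.9 and 17.4 (−1.61 ± 0.26; limma, adjusted p = 0.119). Of 15 glucocorticoid targets and metallothioneins tested of 16, 0 were higher and 3 lower at an unadjusted p under 0.05, with a median of −0.36, or −0.44 corrected, which was −0.19 without PKD_FP replicate 1 and −0.72 without PKD_FP replicate 2. The metallothionein genes Mt1 (629 and 760.5 and 746 and 688) and Mt2 (372 and 589.7 and 381 and 472) overlapped. Zbtb16, a glucocorticoid-induced transcription factor gene, stood at 7.25 and 12.8 and 2.33 and 3.43 (−1.47 ± 0.32; limma, adjusted p = 0.119).

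Inflammatory and stromal lists other than the MHC class II genes had no settled direction. Of 34 chemokines and cytokines tested of 41, 4 were higher and 2 lower at an unadjusted p under 0.05. Of the 34, 4 reached 1 FPKM in both PKD_FP libraries and not in both PKD_DMSO libraries, and 1 the reverse. The filter favours a difference for these members. The median of the list was 0.06, or −0.04 corrected. Without PKD_FP replicate 2 it was −0.09, and without PKD_DMSO replicate 1 and PKD_FP replicate 1 it was 0.29 and 0.36. Of 8 MHC class II genes tested of 11, 2 were apart and lower (25%). At an unadjusted p under 0.05 (limma), 0 were higher or lower. Their median was −0.55, or −0.66 corrected, and stayed below 0 in every alternative, from −0.75 to −0.18. It was −0.18 without PKD_DMSO replicate 2 and −0.21 without PKD_FP replicate 2. Among ligands of monocytes, Ccl6 stood at 35.6 and 56.5 FPKM in PKD_DMSO and 11.4 and 16.5 in PKD_FP (−1.64), and Ccl7 at 3.93 and 6.19 and 14.8 and 10.3 (1.17), so the members differed in sign. The membrane-bound chemokine gene Cx3cl1 overlapped at 42.6 and 81.9 and 73.6 and 73.9. Of 41 extracellular matrix genes, 0 were higher and 2 lower at an unadjusted p under 0.05, and the median of 0.01 became −0.58 to 0.35 when 1 PKD library was left out. Sparc, a collagen-binding protein, overlapped at 489.6 and 859 and 754 and 966, as did the proteoglycan gene Bgn at 177 and 498 and 315 and 362. The endothelial median of 0.59 ran from −0.08 to 1.17 and the fibroblast and myofibroblast median of 0.49 from −0.14 to 1.01 in the same alternatives. The PKD_DMSO replicates differed in these cells, with summed fibroblast markers of 898.4 and 1853.3 FPKM and summed endothelial markers of 161.4 and 434.3.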
